A study of Mus musculus with 4 samples.

Results

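Infarcted left ventricle was compared with non-infarcted left ventricle of mice labelled Neil3-/-, that is, without the DNA glycosylase Neil3. The comparison takes the 2 libraries labelled Neil3 KO out of the 4 libraries of the series, chosen by their labels for genotype and tissue, and joins their gene tables on the Entrez gene identifier. The other 2 libraries are infarcted and non-infarcted ventricle of wild-type mice, and they are used here only where the knockout response differs from theirs. All mice were C57BL/6 and 8 weeks old, and all had an induced myocardial infarction 3 days before the tissue was taken, so the non-infarcted tissue comes from operated hearts and no unoperated heart is compared. Total RNA was sequenced on an Illumina HiSeq, and each group has 1 library. Whether that library came from a single mouse or a pool is not given in the labels, nor is the part of the gene that the deletion removes. With 1 library on each side the spread between mice is unknown, no test can be run, and every interval below is an exact 95% interval that covers counting error only.

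The heart wall that loses its blood supply goes through an ordered repair. Heart muscle cells die, neutrophils and then monocytes enter and clear the debris, and fibroblasts and vessel cells next divide and lay down a provisional and later a collagen scar, while the surviving muscle carries the mechanical load. Neil3 removes oxidised bases from DNA and is made mainly by dividing cells.

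Neil3 itself had 391 reads (12.05 RPKM) in the non-infarcted and 763 reads (18.5 RPKM) in the infarcted library labelled knockout, a ratio of 1.53 (1.35 to 1.74). RPKM is the read count scaled to the length of the gene and to the total reads of the library. Wild-type tissue had 62 reads (1.83 RPKM) and 155 reads (3.95 RPKM). The targeted gene was thus read more often in the libraries labelled knockout than in wild type. A count over the whole gene cannot show whether part of it is missing, so the label could not be checked. Reads covered 62.9% and 71.5% of the gene model in the libraries labelled knockout. In wild type they covered 63.4% and 73.4%, so coverage was similar at fewer reads. In the non-infarcted library labelled knockout, Scd4 with 461 reads had 96.7% coverage, Ces1d with 316 reads 92.4% and Klhdc8a with 395 reads 59.4%. Whether part of Neil3 was unread was not tested. The libraries are therefore called by their labels throughout, and no direction below is tied to a loss of Neil3.

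The non-infarcted library held 14.3 M and the infarcted library 18.2 M uniquely assigned reads, on 16249 and 16510 genes. In all, 12563 genes reached 1 RPKM in at least 1 of both libraries and were compared on the log2(RPKM + 1) scale, which understates the change of low genes. On that scale 1030 genes (8.2%) passed 2-fold upward in infarcted tissue and 762 genes (6.07%) passed it downward, and 64 and 71 genes passed 4-fold. The median log2 ratio over all compared genes was 0.24. The 100 genes with most reads held 27.0% of reads in non-infarcted and 21.8% in infarcted tissue. When the libraries were instead scaled by edgeR's trimmed mean (TMM), the median over all genes moved by -0.23, with 528 genes (4.2%) higher and 1096 genes (8.73%) lower. Higher genes made up 57.5% of the counted genes as deposited and 32.5% under TMM. Median-ratio scaling called 4.24% and 8.69%, totals without the 100 genes with most reads 6.52% and 6.85%, totals without ribosomal and small noncoding RNA 8.29% and 6.02%, and a call by the counting interval 7.07% and 5.64%. Values below are as deposited, the counts of list members use the log2(RPKM + 1) scale, and the folds with intervals are plain ratios of RPKM. List medians are to be read against the 0.24 of all genes, and counts of members against the 8.2% and 6.07% of all genes. TMM scaling moved the number of members past 2-fold upward by over 1.5 times in 30 of the 84 lists and the number past it downward in 15, and where a count given below is one of these its TMM count stands in parentheses.

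The most abundant transcripts show the tissue. In non-infarcted tissue the 10 genes of highest RPKM were Actc1, Myl2, Tnnt2, Mb, Tpm1, Myh6, Rn28s1, Fabp3, Myl3 and Tnni3, all but Rn28s1, a ribosomal RNA, genes of heart muscle. In infarcted tissue the 10 were Actc1, Rn18s, Rn28s1, Actb, Fth1, Eef1a1, Tnnt2, Tpm1, Des and Cryab. Actb and the translation factor Eef1a1 are made by all cells. Fth1, the heavy chain of ferritin, had 1949 and 2527 RPKM, 1.297-fold (1.28 to 1.32) higher, and Eef1a1 1038 and 2408 RPKM, 2.32-fold (2.29 to 2.35) higher. Tnnt2, cardiac troponin T, had 5474 and 2159.7 RPKM, 2.53-fold (2.51 to 2.56) lower.

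**Figure D1:**
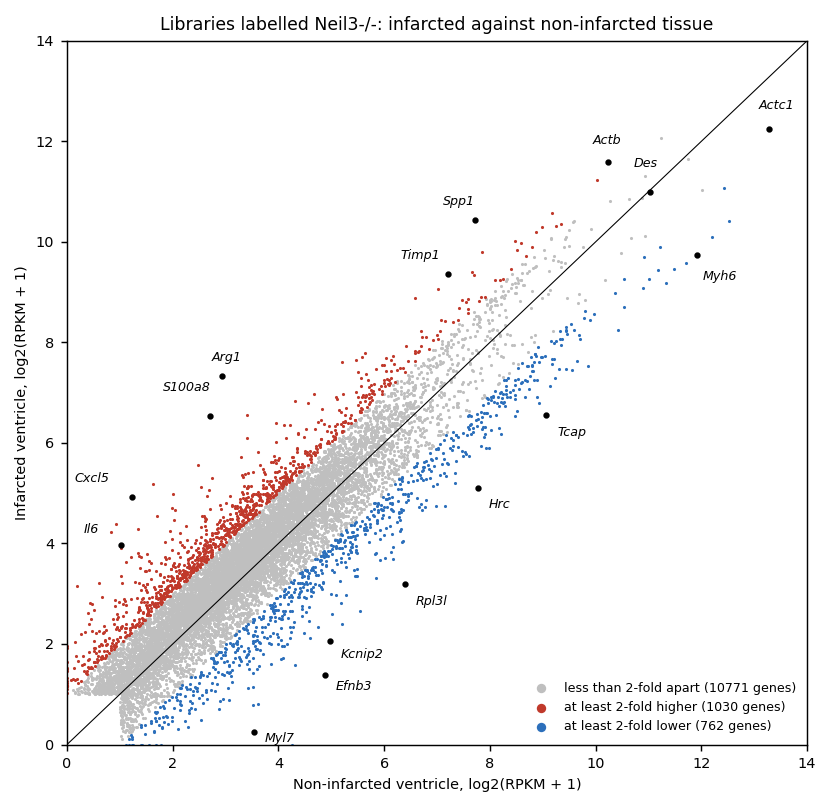
RPKM of the 12563 compared genes in infarcted (vertical) against non-infarcted tissue (horizontal) of the libraries labelled Neil3-/-, both as log2(RPKM + 1). Red points are the 1030 genes at least 2-fold higher, blue points the 762 genes at least 2-fold lower, and the line marks equal values. Muscle genes such as Tcap and Hrc lie below the line, Des lies on it, and Arg1 and S100a8 lie far above it.

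The gene furthest above its counting error in infarcted tissue was Arg1, arginase 1, which breaks down arginine in activated macrophages. Arg1 stood at 6.63 and 161 RPKM in non-infarcted and infarcted tissue, in that order as in all pairs of values below, 24.2-fold (20.5 to 28.9) higher. The next places went to genes of neutrophils and their recruitment. The chemokine gene Cxcl3 stood at 0.136 and 7.89 RPKM, 58.1-fold (15.8 to 484) higher, its interval wide because the lower library had few reads. The decoy receptor for interleukin 1, Il1r2, stood at 0.772 and 17.8 RPKM, 23.03-fold (13.8 to 41.5) higher. Clec4e, a receptor that senses dead cells, stood at 0.528 and 8.24 RPKM, 15.6-fold (9.86 to 26.2) higher. All but Arg1 stood below 1 RPKM in non-infarcted tissue. Trem3, a myeloid receptor, had 0 reads there and 23 reads in infarcted tissue, 6.02-fold higher against a floor of 3 reads. That floor is a set value and not a bound.

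Spp1, osteopontin, was already abundant in non-infarcted tissue, with 208 and 1388 RPKM, 6.67-fold (6.47 to 6.88) higher. Chi3l3, a chitinase-like protein of alternatively activated macrophages, had 2.99 and 30.5 RPKM, 10.2-fold (7.96 to 13.3) higher. Both are products of activated macrophages. F10, coagulation factor X, had 0.390 and 5.92 RPKM, 15.2-fold (9.05 to 27.5) higher. Ptx3, a secreted pattern-recognition protein, had 1.53 and 13.1 RPKM, 8.58-fold (6.25 to 12.1) higher. Bmp2, a bone morphogenetic protein, had 1.02 and 9.26 RPKM, 9.08-fold (6.48 to 13.1) higher. These are secreted proteins. Slpi, an inhibitor of neutrophil proteases and also secreted, had 0.313 and 5.16 RPKM, 16.5-fold (6.21 to 61.9) higher. The 20 genes ranked highest by the near bound of their interval also held Cd300lf, a myeloid receptor, Sh2d5 and AA467197. The others are described with their lists below.

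At the lower end stood mainly genes of striated muscle. Myl7, the atrial myosin light chain, had 10.6 and 0.183 RPKM, 57.9-fold (15.6 to 486) lower. Efnb3, an ephrin ligand, had 28.4 and 1.60 RPKM, 17.8-fold (14.4 to 22.2) lower. Rpl3l, a ribosomal protein that replaces Rpl3 in striated muscle, had 83.0 and 8.10 RPKM, 10.3-fold (8.86 to 11.9) lower. Several genes of this end serve fat and carbohydrate metabolism. Scd4, a heart fatty acid desaturase, had 10.5 and 0.733 RPKM, 14.3-fold (10.4 to 20.2) lower. Ces1d, a carboxylesterase, had 11.2 and 0.755 RPKM, 14.9-fold (10.1 to 22.98) lower. Fbp2, the muscle fructose bisphosphatase, had 9.73 and 1.19 RPKM, 8.19-fold (5.48 to 12.7) lower. Dhrs7c, a dehydrogenase of the sarcoplasmic reticulum, had 35.8 and 4.23 RPKM, 8.45-fold (6.73 to 10.7) lower. Lrtm1, Klhdc8a, Asb14, Car14, Ogdhl and Slc36a2 also stood at the lower end of the ranking, between 6.18-fold (Ogdhl) and 8.66-fold (Lrtm1) lower. The rest of this end is described below. In bulk tissue, fewer cells of a type and less RNA per cell cannot be told apart.

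**Figure D2:**
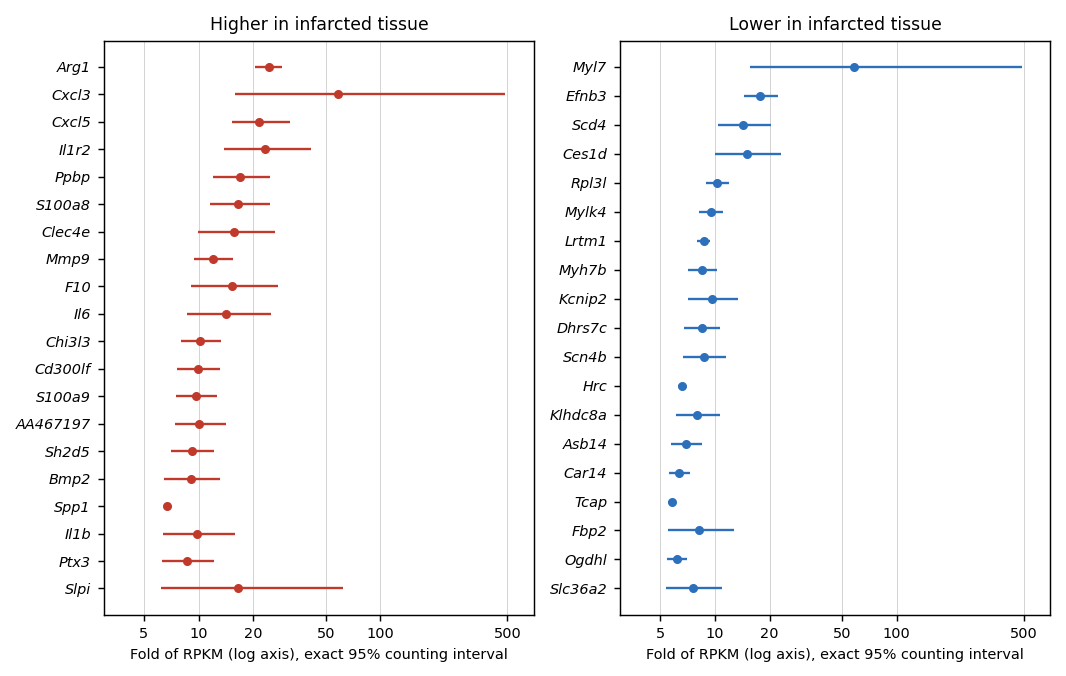
Fold of RPKM between infarcted and non-infarcted tissue of the libraries labelled Neil3-/- (log axis), for the genes ranked highest (left, 20 genes) and lowest (right, 19 genes with reads in both libraries) by the near bound of their interval. Points are ratios and lines exact 95% counting intervals, which are narrow for abundant genes such as Spp1 and Tcap and wide for Cxcl3 and Myl7.

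The same end of the ranking held a microRNA gene, Mir208b, with 20 reads in non-infarcted and 0 in infarcted tissue. Against a floor of 3 reads in the infarcted library it was 8.49-fold lower, and the near bound of its exact interval was 6.29-fold. Mir208b lies within the slow myosin gene Myh7 and its relative Mir208a, with 2 and 0 reads, within Myh6, so reads on the hairpins cannot be told from reads on the introns around them. The 2 mature sequences from RefSeq (GRCm38.p6) are shown because they share a seed, bases 2 to 8, in capitals:
miR-208b-3p, chr14:54975710-54975731, minus strand: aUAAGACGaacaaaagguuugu
miR-208a-3p, chr14:54949072-54949093, minus strand: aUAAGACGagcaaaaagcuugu
Of 56 microRNA genes with a read, 19 reached 1 RPKM, and the median over the 56 was 1 read in both libraries together, so the others are not described.

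Contractile genes were mostly lower. Of 12 compared genes of the thick filament, 10 were at least 2-fold lower and 0 higher, with a median log2 ratio of -1.58. Myh6, the fast cardiac myosin, had 3868 and 855 RPKM, 4.52-fold (4.49 to 4.55) lower. Myl2, the ventricular regulatory light chain, had 5914 and 1372 RPKM, 4.31-fold (4.23 to 4.39) lower. Mylk4, a kinase of striated muscle, had 18.8 and 1.99 RPKM, 9.46-fold (8.17 to 11.01) lower, and Myh7b, a slow-type myosin, 10.4 and 1.22 RPKM, 8.52-fold (7.11 to 10.3) lower. Myl9, the light chain of smooth muscle and other non-striated cells, was on the opposite side, at 48.9 and 70.9 RPKM. The thin filament was less reduced, with 8 of 11 genes at least 2-fold lower and a median of -1.20. Within it, Tnni3, the inhibitory troponin, was 4.41-fold (4.31 to 4.52) lower at 2558 and 579.7 RPKM. Cardiac actin Actc1, the most abundant transcript of both libraries, was 2.04-fold (2.03 to 2.06) lower at 9922 and 4861 RPKM. Tnni3 and Actc1, both of the thin filament, were thus lower by unequal folds.

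At the Z-disc, the anchor of the filaments, 9 of 20 genes passed 2-fold downward and the median was -0.97. Tcap, which caps titin, had 536 and 92.4 RPKM, 5.798-fold (5.49 to 6.12) lower. Fhl2, a LIM protein that binds titin, had 746 and 174 RPKM, 4.28-fold (4.15 to 4.42) lower. Ttn, titin itself, had 75.3 and 27.7 RPKM, 2.72-fold (2.69 to 2.75) lower. At the other end of this list were 4 genes near or above 0. Des, the intermediate filament desmin, had 2074 and 2044 RPKM, a ratio of 0.985 (0.975 to 0.996). Cryab, the small heat shock protein that guards desmin, had 1891 and 1874 RPKM, a ratio of 0.991 (0.977 to 1.01). Flnc, muscle filamin, had 154 and 147 RPKM, and Xirp2, which marks remodelled Z-discs and intercalated discs, had 359.5 and 501 RPKM, 1.39-fold (1.38 to 1.41) higher. Des, Cryab and Flnc, all within the shift between scalings, are given no direction. The 8 defining markers of heart muscle cells were all at least 2-fold lower (median log2 ratio -1.92).

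Calcium handling genes were lower too. Of 19 genes, 13 were at least 2-fold lower, with a median of -1.34. Hrc, which binds calcium inside the reticulum, led them with 219 and 33.3 RPKM, 6.58-fold (6.23 to 6.97) lower. Atp2a2, the calcium pump SERCA2, had 1909 and 539 RPKM, 3.54-fold (3.51 to 3.58) lower. Pln, its inhibitor phospholamban, had 1477 and 418 RPKM, 3.53-fold (3.48 to 3.59) lower, so the intervals of pump and inhibitor overlap. Ryr2, the release channel, had 144 and 47.4 RPKM, 3.04-fold (2.98 to 3.10) lower. Sln, sarcolipin, a second inhibitor of the pump, had 17 and 0 reads, 7.22-fold lower against a floor of 3 reads. Slc8a1, the sodium-calcium exchanger of the surface membrane, had 55.4 and 32.1 RPKM, 1.72-fold (1.68 to 1.77) lower. Camk2d, the calcium-activated kinase of the heart, had 46.4 and 34.6 RPKM, 1.34-fold (1.27 to 1.41) lower.

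Ion channels that repolarise the muscle cell were lower as a group, with 11 of 15 potassium channel genes at least 2-fold lower and a median of -1.33. Kcnip2, the subunit that sets the transient outward current, had 30.5 and 3.18 RPKM, 9.59-fold (7.06 to 13.3) lower. Kcnj3 and Kcnj11, inward rectifiers, had 15.6 and 2.26 RPKM and 43.4 and 9.26 RPKM. Every member lay below 0, the nearest being Kcna5 and Kcnj8 with log2 ratios of -0.27 and -0.26. Of 9 sodium and pacemaker channel genes 5 were at least 2-fold lower. Scn4b, a beta subunit, had 7.32 and 0.841 RPKM, 8.70-fold (6.69 to 11.5) lower, the lowest ratio of the list.

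Cell-to-cell contacts of the intercalated disc were less affected, with 4 of 13 genes at least 2-fold lower and a median of -0.26. The desmosomal genes Dsg2 and Dsp had 22.2 and 8.16 RPKM and 214 and 94.1 RPKM. Gja1, the gap junction protein connexin 43, had 178 and 148 RPKM, 1.20-fold (1.17 to 1.24) lower. Vcl, vinculin, had 78.9 and 97.0 RPKM. The lowest 4 of the list, Dsg2, Ctnna3, Dsp and Dsc2, include 3 desmosomal genes. Cardiac transcription factors had a median of -0.57, with 4 (8 under TMM) of 18 at least 2-fold lower. Irx4, the ventricle-specific factor, led with 20.8 and 5.49 RPKM, 3.79-fold (3.29 to 4.37) lower. Gata4 had 54.6 and 33.6 RPKM, 1.63-fold (1.54 to 1.72) lower, and Mef2a 43.9 and 37.2 RPKM. Myocd, the coactivator of serum response factor, had 21.0 and 7.80 RPKM, 2.69-fold (2.46 to 2.94) lower, while Srf itself had 37.7 and 34.8 RPKM.

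Receptors for neurohormones lay on both sides. Of 16 genes, 6 were at least 2-fold lower and 2 (0 under TMM) higher. Agtr1a, the angiotensin receptor, had 14.8 and 3.61 RPKM, 4.09-fold (3.40 to 4.95) lower. Adra1b, an alpha adrenergic receptor, had 11.6 and 2.67 RPKM, 4.35-fold (3.61 to 5.26) lower, and Adrb1, the main beta receptor of heart muscle, 7.47 and 3.07 RPKM, 2.44-fold (1.98 to 3.01) lower. Members of the endothelin system were the highest of the list. Edn1, the ligand, had 3.37 and 7.88 RPKM, 2.33-fold (1.88 to 2.92) higher. Its processing enzyme Ece1 had 32.5 and 67.0 RPKM, 2.06-fold (1.96 to 2.16) higher, and the receptor Ednrb 11.7 and 23.7 RPKM, while the other receptor, Ednra, had 16.3 and 10.1 RPKM.

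Genes that mark strained heart muscle were spread around 0, with a median of -0.08 over 16 genes, 2 (1 under TMM) of them at least 2-fold higher and 3 lower. Nppa, atrial natriuretic peptide, had 1228 and 1805 RPKM, 1.47-fold (1.44 to 1.5003) higher. Nppb, the B-type peptide, had 562 and 524 RPKM, a ratio of 0.933 (0.903 to 0.965). Ankrd1, a stretch-responsive repressor, had 1632 and 1083 RPKM, 1.51-fold (1.49 to 1.53) lower. Gdf15, a stress cytokine, had 8.33 and 21.4 RPKM, 2.57-fold (2.11 to 3.16) higher, and Ctgf, a matrix-linked growth factor, 238 and 479 RPKM, 2.01-fold (1.96 to 2.07) higher. Myh7, the slow myosin often used as a sign of the fetal program, was 2.81-fold (2.70 to 2.93) lower at 85.9 and 30.5 RPKM. Nppa and Nppb thus lay above the median of the thick filament.

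Mitochondrial energy genes were lower. Of 37 nuclear genes of complex I, 37 lay below 0 and 29 were at least 2-fold lower, between -1.41 and -0.74 around a median of -1.22. For complexes II to V, 33 of 42 were at least 2-fold lower, with a median of -1.21. Atp5b, the catalytic subunit of ATP synthase, had 1929.8 and 835 RPKM, 2.31-fold (2.28 to 2.34) lower. Cycs, cytochrome c, had 257 and 115 RPKM, 2.23-fold (2.17 to 2.30) lower. Mitochondrial ribosome genes had smaller ratios, with 0 (6 under TMM) of 41 past 2-fold and a median of -0.32. The citrate cycle and pyruvate dehydrogenase had a median of -1.23, with 18 of 24 genes at least 2-fold lower. Idh2, the mitochondrial isocitrate dehydrogenase, led them with 560.3 and 139.9 RPKM, 4.004-fold (3.87 to 4.14) lower. Pdk3, an inhibitory kinase of pyruvate dehydrogenase, was on the opposite side at 5.11 and 10.1 RPKM.

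Fat oxidation, the main fuel route of the adult heart, was the energy list with the lowest median, -1.59, and 27 of its 34 genes were at least 2-fold lower. Plin5, which coats lipid droplets beside mitochondria, had 25.8 and 4.02 RPKM, 6.41-fold (5.36 to 7.71) lower. Lpl, which frees fatty acids from lipoproteins, had 1370.3 and 301 RPKM, 4.55-fold (4.49 to 4.62) lower. Fabp3, the heart fatty acid-binding protein, had 3344 and 761 RPKM, 4.39-fold (4.29 to 4.50) lower. Uptake and oxidation both had members past 2-fold. On the log2 scale Acsl1, which activates fatty acids, had -2.07, Acadm, the medium-chain dehydrogenase, -1.95, and Hadha, of the trifunctional protein, -1.55. Fabp5 and Acsl4, forms found in macrophages and other cells, were higher, at 45.9 and 140.2 RPKM and 8.11 and 19.9 RPKM. Receptors and coactivators that regulate such genes had 9 of 15 past 2-fold downward. Ppargc1a, the coactivator of mitochondrial biogenesis, had 22.8 and 5.63 RPKM, 4.05-fold (3.71 to 4.43) lower. Ppara had 13.2 and 3.04 RPKM, 4.35-fold (3.90 to 4.87) lower, and Klf15, a regulator of cardiac lipid use, 18.5 and 4.02 RPKM, 4.59-fold (3.87 to 5.48) lower. Ppard and Pparg, by contrast, had log2 ratios of -0.01 and -0.06.

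Branched-chain amino acid and ketone genes had a median of -1.34, with 13 of 18 lower. Bckdha, a subunit of the committed step, had 78.5 and 23.6 RPKM, 3.32-fold (3.05 to 3.62) lower. Oxct1, the enzyme that activates ketone bodies, had 353 and 123 RPKM, 2.87-fold (2.80 to 2.95) lower. Bcat1, the cytosolic transaminase, was the exception at 2.40 and 7.004 RPKM, 2.92-fold (2.55 to 3.35) higher. Myoglobin, Mb, the oxygen store of muscle, had 4715 and 1087 RPKM, 4.34-fold (4.27 to 4.40) lower.

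Glycolysis divided into a lower and a higher set, 9 and 6 (3 under TMM) of 31 genes, with a median of -0.34. Slc2a4, the insulin-dependent glucose carrier, had 125 and 25.9 RPKM, 4.82-fold (4.54 to 5.13) lower, and Eno3, muscle enolase, 485 and 110.5 RPKM, 4.39-fold (4.22 to 4.58) lower. Slc16a3, which exports lactate, had 9.74 and 41.3 RPKM, 4.24-fold (3.78 to 4.77) higher. Hk3, the hexokinase of white blood cells, had 3.91 and 11.3 RPKM, 2.89-fold (2.45 to 3.42) higher, and Pfkfb3, which makes the activator of phosphofructokinase, 3.82 and 10.6 RPKM, 2.78-fold (2.43 to 3.18) higher.

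Pairs of tissue forms of one enzyme or structural protein were compared within each library. Over 20 pairs of a muscle form and a second form, the muscle form had the lower log2 ratio in all 20, by a median gap of 2.36 on the log2 scale. The muscle form was at least 2-fold lower in 18 pairs, while the second form was at least 2-fold higher in 9. The pairs were chosen with these data known, so their direction is a description. For the glucose carriers, the share of Slc2a4 in the sum of Slc2a4 and Slc2a1 went from 87.7% to 41.2%. Phosphoglycerate mutase went from 76.9% to 36.5% for Pgam2, and cytochrome oxidase subunit 8 from 74.4% to 44.6% for Cox8b. Among structural proteins, Actc1 went from 89.2% to 61.2% of the sum with Actb. The muscle ribosomal protein Rpl3l went from 23.3% to 1.69% of the sum with Rpl3. The muscle form held the larger share in 17 pairs in non-infarcted and in 12 pairs in infarcted tissue. For the calcium pump Atp2a2 went from 99.8% to 99.2% of the sum with Atp2a3.

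**Figure D3:**
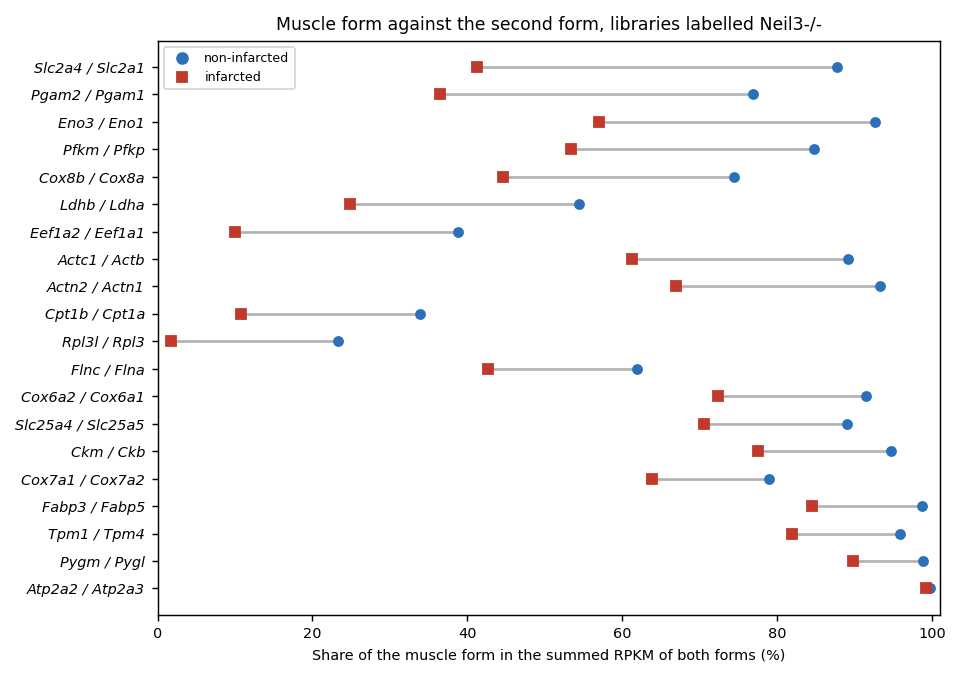
Share of the muscle form in the summed RPKM of both forms (horizontal axis, percent) for 20 pairs in the libraries labelled Neil3-/-. Blue circles are non-infarcted and red squares infarcted tissue. All 20 squares lie left of their circle, by up to 46.5 percentage points for Slc2a4, and a share near 100%, such as that of Atp2a2, has little room to move.

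Neutrophil genes had the highest median of all 84 lists, 2.11, and 16 of its 18 compared genes passed 2-fold upward. S100a8 and S100a9, the calprotectin pair of the neutrophil cytosol, had 5.53 and 91.5 RPKM and 9.61 and 92.4 RPKM. The former was 16.5-fold (11.5 to 24.5) higher and the latter 9.62-fold (7.49 to 12.5). Mmp9, the gelatinase of neutrophil granules, had 1.54 and 18.5 RPKM, 12.02-fold (9.44 to 15.5) higher. Csf3r, the receptor for granulocyte colony-stimulating factor, had 5.40 and 32.6 RPKM, 6.04-fold (5.30 to 6.90) higher. Granule genes made at the early stages of neutrophil formation were near absent, with 3 reads of Mpo and 2 of Elane in infarcted tissue and 0 in non-infarcted tissue. Of the 9 fixed neutrophil markers, Ly6g was listed in neither library, 6 were compared and 5 of these passed 2-fold upward. Several of these genes are also made by activated monocytes.

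Chemokines of the CXC class and their receptors, of which only some serve to attract neutrophils, had a median of 1.58, with 10 of 15 higher. Cxcl5 had 1.35 and 29.2 RPKM, 21.6-fold (15.2 to 31.7) higher. Ppbp and Pf4, chemokines of platelets and megakaryocytes that macrophages can also make, had 2.09 and 35.3 RPKM and 44.3 and 169 RPKM. Cxcl1, the mouse keratinocyte chemoattractant, had 1.60 and 10.4 RPKM, 6.496-fold (4.16 to 10.6) higher, and Cxcr2, the receptor these ligands share, 2.41 and 11.1 RPKM, 4.61-fold (3.75 to 5.73) higher. Cxcl12, the homing signal of stromal cells, had 48.5 and 59.7 RPKM, and the interferon-induced Cxcl9 had 1.61 and 1.57 RPKM. The 4 highest ratios of the class, Cxcl5, Ppbp, Cxcl3 and Cxcl1, belong to ligands of Cxcr2.

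Promoters of this class are shown because most of its members were higher. RefSeq (GRCm38.p6) held a promoter for 9951 of the 12563 compared genes (79.2%), and the 250 bases before the start were searched on both strands for GGGA and TTCC with any 2 bases between them, a form of the NF-kB site. It was found in 1.47% of compared genes, in 2.80% of 786 genes at least 2-fold higher, in 9 of 600 genes at least 2-fold lower and in 4 of 13 genes of the CXC list, namely Cxcl1, Cxcl2, Cxcl3 and Cxcl10. A match describes the letters and not a bound site. The first 3 and Il6 are printed 5′ to 3′ along the gene with the match in capitals. In the CXC promoters the capitals hold a match on each strand, offset by 1 base:
Cxcl1, chr5:90890995-90891244, plus strand: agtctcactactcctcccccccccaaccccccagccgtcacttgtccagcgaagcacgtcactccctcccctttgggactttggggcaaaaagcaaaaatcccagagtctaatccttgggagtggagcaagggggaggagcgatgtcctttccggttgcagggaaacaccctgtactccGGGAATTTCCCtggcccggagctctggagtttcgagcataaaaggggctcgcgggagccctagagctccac
Cxcl2, chr5:90903649-90903898, plus strand: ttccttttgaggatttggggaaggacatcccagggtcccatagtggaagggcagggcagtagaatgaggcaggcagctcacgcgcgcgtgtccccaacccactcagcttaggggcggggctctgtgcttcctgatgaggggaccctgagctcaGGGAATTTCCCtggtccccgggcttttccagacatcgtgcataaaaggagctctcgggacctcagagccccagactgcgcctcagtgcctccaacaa
Cxcl3, chr5:90785851-90786100, plus strand: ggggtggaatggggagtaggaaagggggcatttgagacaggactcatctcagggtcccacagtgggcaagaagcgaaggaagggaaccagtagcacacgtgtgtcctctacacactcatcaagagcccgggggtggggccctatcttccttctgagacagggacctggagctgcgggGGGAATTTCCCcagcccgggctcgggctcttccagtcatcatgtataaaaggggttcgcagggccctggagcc
Il6, chr5:30012864-30013113, plus strand: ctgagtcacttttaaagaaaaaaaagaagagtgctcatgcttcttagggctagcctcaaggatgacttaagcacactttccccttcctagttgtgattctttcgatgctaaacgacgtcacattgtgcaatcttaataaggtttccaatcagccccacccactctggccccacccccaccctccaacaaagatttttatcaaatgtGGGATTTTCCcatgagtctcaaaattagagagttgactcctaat
The match starts 71, 97, 73 and 44 bases before the start site. For the AP-1 letters TGANTCA the shares were 5.60% of compared genes, 9.54% of higher and 6.67% of lower genes. For the MEF2 letters, CTA and TAG with any 4 bases between them, they were 3.51%, 1.78% and 39 of 600. Among genes at least 4-fold lower, 1 of 55 held the MEF2 letters. So did 1 of 11 thick filament genes and 1 of 14 calcium handling genes.

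Among CC chemokines and their receptors, of which only some serve to attract monocytes, 11 of 20 were at least 2-fold higher. The median was 1.44. Ccl2, the main ligand of the monocyte receptor Ccr2, had 18.9 and 113 RPKM, 5.95-fold (5.16 to 6.88) higher. Ccl7, a second ligand of Ccr2, had 9.59 and 67.2 RPKM, 7.004-fold (5.82 to 8.50) higher, and Ccr2 itself 10.5 and 42.1 RPKM, 4.002-fold (3.65 to 4.40) higher. Ccl8 and Ccl5 stood low in the list, at 9.07 and 9.56 RPKM and 2.66 and 3.04 RPKM. Ccl7 and Ccl2 had the 2 highest ratios of the list.

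Cytokine genes were low in level in both libraries. In the interleukin 1 family 9 of 13 genes were higher. Il1b, its secreted ligand, had 1.16 and 11.4 RPKM, 9.81-fold (6.35 to 15.9) higher. The natural antagonist Il1rn had 1.86 and 12.8 RPKM, 6.88-fold (5.32 to 9.01) higher, and the receptor Il1r1 10.6 and 30.6 RPKM, 2.88-fold (2.66 to 3.13) higher, so ligand, antagonist, decoy and receptor were all higher. Il18bp, which binds interleukin 18, was lower at 13.1 and 7.03 RPKM. In the interleukin 6 family 7 of 15 were higher. Il6 had 1.03 and 14.6 RPKM, 14.2-fold (8.59 to 25.1) higher. Socs3, the feedback inhibitor of this pathway, had 12.05 and 37.3 RPKM, 3.10-fold (2.80 to 3.43) higher, whereas its transcription factor Stat3 had 79.0 and 76.2 RPKM. Ctf1, cardiotrophin 1, was lower at 3.43 and 1.18 RPKM, 2.90-fold (1.85 to 4.65).

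The tumour necrosis factor family had a median of 0.82, with 7 (3 under TMM) of 24 higher. Tnf itself had 0.605 and 2.31 RPKM, 3.81-fold (2.12 to 7.34) higher. Tnfaip6, a hyaluronan-binding protein it induces, had 1.79 and 7.79 RPKM, 4.35-fold (3.11 to 6.22) higher. Toll-like receptors and their adaptors had a median of 1.02, with 9 (5 under TMM) of 18 higher. Cd14, the coreceptor for endotoxin, had 9.58 and 30.9 RPKM, 3.22-fold (2.76 to 3.77) higher, and Nlrp3, the inflammasome sensor, 0.522 and 3.78 RPKM, 7.25-fold (4.96 to 10.95) higher. The receptor Tlr3, which senses double-stranded RNA, was close to level at 5.84 and 6.65 RPKM.

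Macrophage genes were put in a recruited and a resident list, whose ratios overlap. Of 31 genes of recruited monocytes and macrophages, 25 were at least 2-fold higher, with a median of 1.62. Itgam, the integrin CD11b, had 14.4 and 63.6 RPKM, 4.41-fold (4.12 to 4.72) higher. Lyz2, lysozyme, had 441 and 957 RPKM, 2.17-fold (2.11 to 2.23) higher, and Hmox1, which breaks down heme, 95.1 and 469.8 RPKM, 4.94-fold (4.72 to 5.17) higher. Of 20 genes of resident macrophages, 1 was higher, with a median of 0.61. That gene was Pf4, which platelets also carry. Lyve1, a marker of resident macrophages and lymphatic vessels, had 11.1 and 6.64 RPKM, and Cd163, a hemoglobin scavenger receptor, 6.42 and 4.48 RPKM. Folr2 had 13.3 and 13.7 RPKM, while Mrc1, a mannose receptor, had 27.6 and 48.1 RPKM. The resident list thus ran from -0.67 to 0.89 on the log2 scale without Pf4. Emr1, Csf1r and Vcan of the recruited list, at 0.70, 0.62 and 0.87, lay within that range. The recruited list also holds Fn1, Thbs1 and Cd44, which are described below with the matrix.

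Further myeloid groups were on the high side. Fc receptors and C-type lectins had 20 of 23 genes past 2-fold, with a median of 1.53. Lilrb4, an inhibitory receptor, had 22.6 and 110.2 RPKM, 4.88-fold (4.42 to 5.40) higher. Tyrobp, the adaptor many of them share, had 68.9 and 201 RPKM, 2.91-fold (2.66 to 3.20) higher. MHC class II genes, which present antigen, had a median of 1.13, with 7 (3 under TMM) of 11 higher. Cd74, their invariant chain, had 128 and 281 RPKM, 2.20-fold (2.11 to 2.31) higher. MHC class I genes were less shifted, 0 of 15 past 2-fold and a median of 0.54. Lysosomal genes had a median of 0.83, led by the cathepsin gene Ctss with 103 and 297 RPKM, 2.87-fold (2.73 to 3.02) higher. The NADPH oxidase of phagocytes had 5 of 8 genes higher, among them Ncf4 with 5.69 and 17.0 RPKM.

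Of 35 interferon-stimulated genes 2 were at least 2-fold higher and 1 lower, beside 8.2% and 6.07% of all compared genes. Their median was 0.49. Both higher genes, Ifitm1 and Ifitm6, are membrane proteins also made by myeloid cells, with 5.18 and 21.4 RPKM and 1.16 and 5.89 RPKM. Isg15 had 8.24 and 14.2 RPKM, and Gbp6, a guanylate-binding protein, was lower at 7.35 and 1.94 RPKM. Complement lay on both sides. The receptors C5ar1 and C3ar1 had 14.2 and 49.8 RPKM and 19.5 and 58.3 RPKM, 3.49-fold (3.18 to 3.85) and 2.99-fold (2.80 to 3.19) higher. C3, the central component, had 35.1 and 30.4 RPKM, and Cd59a, which blocks the membrane attack complex, was lower at 34.0 and 15.4 RPKM. Lymphocyte genes were scarce: 4 of the 24 listed genes reached 1 RPKM, and none of the 4 fixed T cell markers did.

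**Figure D4:**
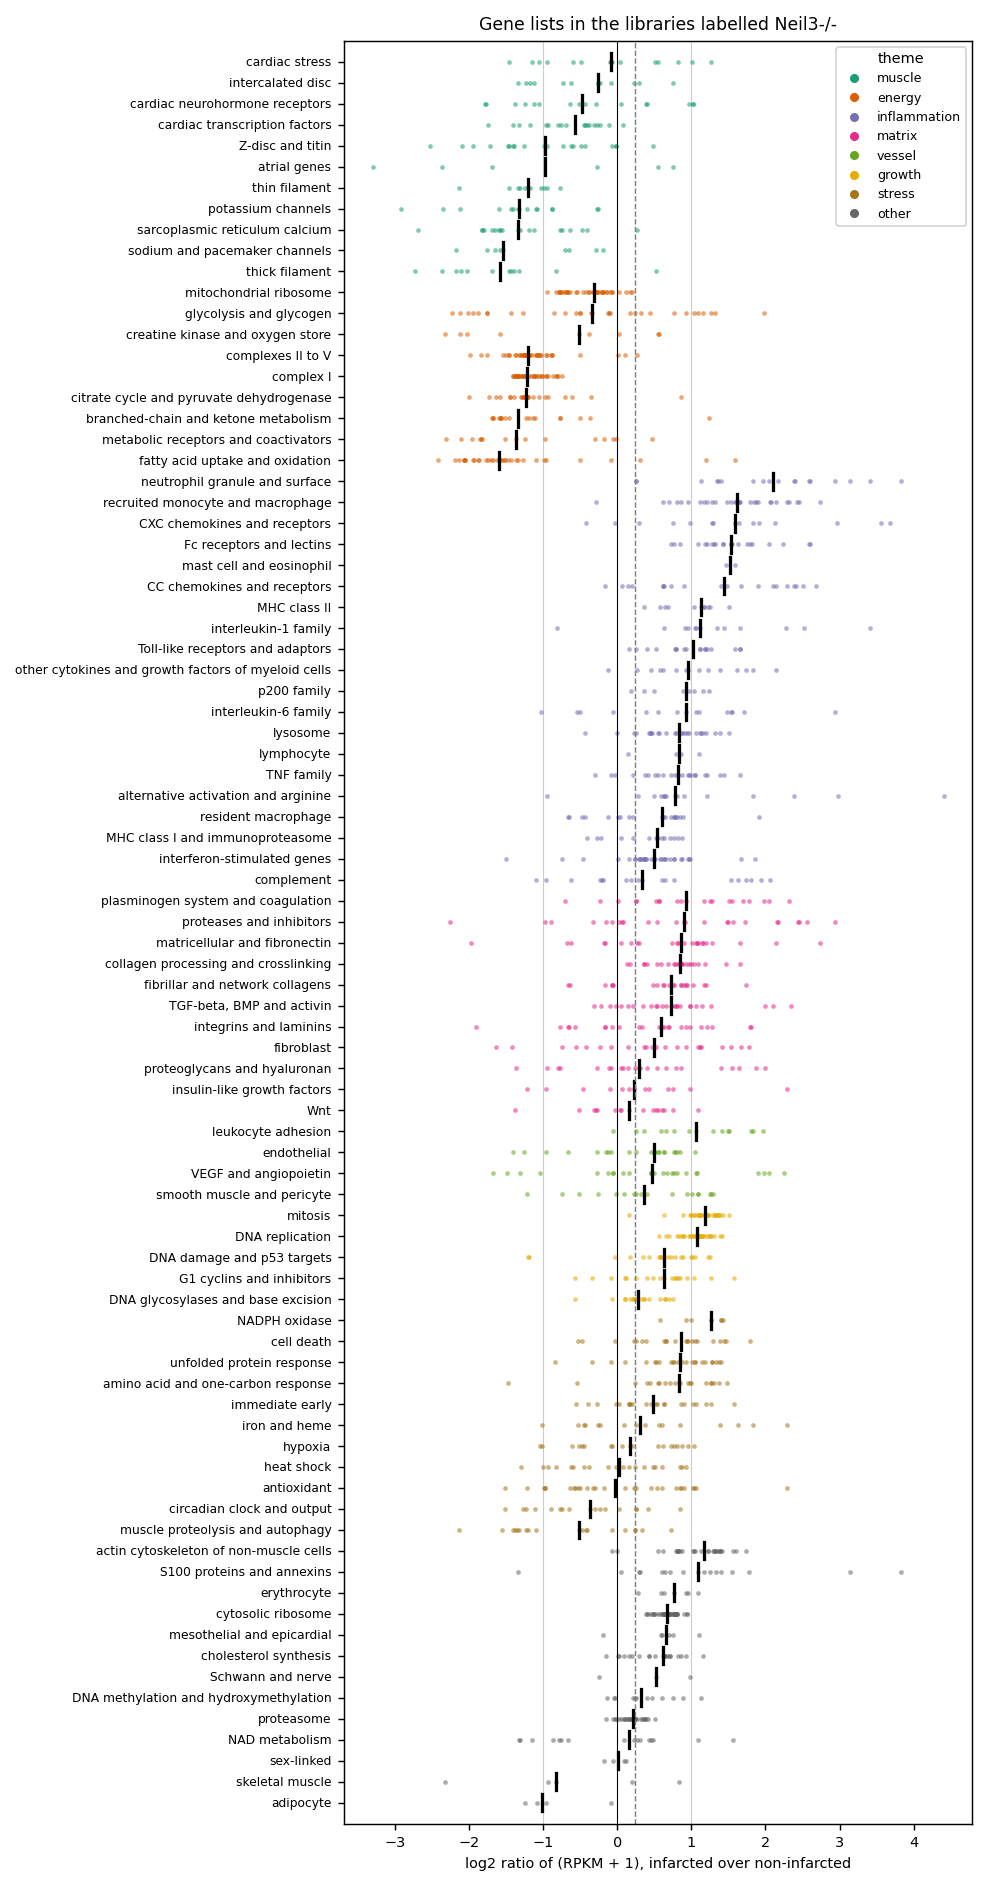
Log2 ratio of (RPKM + 1), infarcted over non-infarcted, of the compared members of 84 gene lists in the libraries labelled Neil3-/-. Each point is 1 gene, black bars are list medians, colours are themes, the dashed line is the median of all compared genes (0.24) and the pale lines mark 2-fold. All 20 inflammation lists have medians above the dashed line and all 20 muscle and energy lists have medians below it. The lists were chosen with earlier results of these data known and some share members, so this split is a description.

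In the matrix, of 22 collagen genes, 4 (1 under TMM) were at least 2-fold higher, with a median of 0.73. Col1a1, the main scar collagen, had 646 and 1316 RPKM, 2.04-fold (2.01 to 2.06) higher, and Col3a1 567 and 1084 RPKM, 1.91-fold (1.89 to 1.93) higher. Col18a1, a basement membrane collagen that holds endostatin, had 13.9 and 48.5 RPKM, 3.50-fold (3.28 to 3.73) higher. Col6a1 and Col6a2, microfibril collagens, had log2 ratios of -0.07 and -0.16. Enzymes that process collagen had a median of 0.84. Lox, the crosslinking lysyl oxidase, led them with 64.7 and 207 RPKM, 3.19-fold (3.07 to 3.32) higher.

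Matricellular proteins had 11 (4 under TMM) of 24 higher and 1 lower. Fn1, fibronectin of the provisional matrix, had 206 and 651 RPKM, 3.16-fold (3.11 to 3.20) higher. Thbs1, thrombospondin 1, had 46.8 and 209.6 RPKM, 4.48-fold (4.33 to 4.64) higher, and Tnc, tenascin C, 128 and 269 RPKM, 2.10-fold (2.05 to 2.14) higher. Postn, periostin of activated fibroblasts, had 557 and 685 RPKM, 1.23-fold (1.21 to 1.25) higher. The lower gene was Tnxb, tenascin X of mature connective tissue, with 15.5 and 3.23 RPKM, 4.80-fold (4.37 to 5.28) lower. Eln, elastin, had 31.4 and 19.2 RPKM, 1.64-fold (1.52 to 1.76) lower. Fn1 and Thbs1, of the provisional matrix, thus lay on the other side from Tnxb and Eln.

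Hyaluronan and proteoglycan genes had a median of 0.30, with 5 of 23 higher. Sdc1, a syndecan, had 9.06 and 39.1 RPKM, 4.31-fold (3.87 to 4.81) higher. Prg4, the lubricant lubricin, had 27.2 and 102 RPKM, 3.74-fold (3.55 to 3.95) higher. Cd44, the hyaluronan receptor, had 14.53 and 47.4 RPKM, 3.26-fold (3.06 to 3.48) higher. Gpc1, a glypican, was lower at 157 and 60.0 RPKM, 2.61-fold (2.51 to 2.72). The small leucine-rich proteoglycan Dcn, decorin, had 292 and 277 RPKM.

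Proteases had a median of 0.90, 11 of 25 higher. Mmp12, the macrophage elastase, had 3.07 and 21.2 RPKM, 6.91-fold (5.86 to 8.201) higher. Adamts4, which cuts proteoglycans, had 5.72 and 38.4 RPKM, 6.73-fold (5.97 to 7.61) higher. Mmp14, the membrane-bound activator of gelatinase A, had 49.4 and 165 RPKM, 3.35-fold (3.18 to 3.53) higher, whereas its substrate Mmp2 had 36.3 and 37.1 RPKM. Inhibitors of these proteases lay on both sides. Timp1 had 147 and 655 RPKM, 4.47-fold (4.26 to 4.70) higher. Timp2 had 57.4 and 60.4 RPKM and Timp3 99.0 and 79.0 RPKM. Timp4, the inhibitor made mainly in the heart, had 13.6 and 2.06 RPKM, 6.61-fold (4.91 to 9.04) lower.

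In the plasminogen and coagulation list 10 of 21 were higher. Plau, the urokinase, had 6.54 and 24.8 RPKM, 3.79-fold (3.27 to 4.40) higher, and Plaur, the urokinase receptor, 9.67 and 33.7 RPKM, 3.48-fold (2.97 to 4.09) higher. F3, tissue factor, was lower at 7.05 and 3.92 RPKM. Activator and receptor were both higher.

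The TGF-beta superfamily list had a median of 0.72, 6 of 27 higher. Inhba and Inhbb, the activin subunits, had 4.90 and 22.4 RPKM and 2.98 and 15.99 RPKM, 4.58-fold (3.72 to 5.68) and 5.37-fold (4.59 to 6.31) higher. Tgfb1 had 51.2 and 108 RPKM, 2.12-fold (1.995 to 2.25) higher. The receptor Tgfbr1 had 10.6 and 21.9 RPKM, and the BMP receptors Bmpr1a and Bmpr2 had log2 ratios of -0.31 and 0.21. The 5 genes past 2-fold that are secreted ligands are Tgfb1, Gdf15, Inhba, Inhbb and Bmp2, and the sixth, Ltbp2, is a latent-TGF binding protein. Wnt genes had a median of 0.17, which turned to -0.01 under TMM scaling. Insulin-like growth factor genes had a median of 0.23, which turned to -0.02. Within them Igfbp3, a carrier of the growth factor, had 24.6 and 124 RPKM, 5.03-fold (4.68 to 5.41) higher, and Irs1, an insulin receptor substrate, 6.97 and 2.43 RPKM, 2.86-fold (2.55 to 3.23) lower.

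Fibroblast genes lay on both sides. Of 22 genes, 7 (4 under TMM) were at least 2-fold higher and 2 lower, with a median of 0.50. Acta2, the actin of myofibroblasts and smooth muscle, had 225 and 479 RPKM, 2.13-fold (2.06 to 2.19) higher. Pdpn, podoplanin, had 14.8 and 49.3 RPKM, 3.32-fold (2.97 to 3.73) higher, and Vim, vimentin of mesenchymal cells, 575 and 1527 RPKM, 2.65-fold (2.61 to 2.70) higher. Pi16, a marker of resting fibroblasts, had 43.2 and 13.3 RPKM, 3.25-fold (2.94 to 3.59) lower, and Gsn, gelsolin, 226 and 84.1 RPKM, 2.68-fold (2.58 to 2.79) lower. Pdgfra, a general fibroblast receptor, had 12.04 and 21.7 RPKM, 1.804-fold (1.68 to 1.94) higher.

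Endothelial genes had a median of 0.50, with 1 (0 under TMM) of 23 higher and 2 lower. Pecam1 and Cdh5, general endothelial markers, had 68.6 and 120.5 RPKM and 98.8 and 178 RPKM. Kdr, the main VEGF receptor, had 41.5 and 34.0 RPKM, and Aqp1, a capillary water channel, 76.5 and 38.7 RPKM, 1.98-fold (1.87 to 2.10) lower. Members of this list thus lay on both sides. Genes for vessel adhesion of leukocytes had a median of 1.07, 8 of 15 higher. Selp, P-selectin, had 1.10 and 6.46 RPKM, 5.87-fold (4.41 to 7.96) higher. Sele, E-selectin, had 1.47 and 4.17 RPKM, 2.84-fold (2.13 to 3.84) higher.

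Growth factors of vessels lay on both sides. Vegfa and Vegfb, made largely by heart muscle cells, had 93.3 and 45.0 RPKM and 168 and 59.5 RPKM, 2.08-fold (1.98 to 2.17) and 2.82-fold (2.65 to 3.01) lower. Pgf, placental growth factor, had 5.52 and 24.7 RPKM, 4.49-fold (3.72 to 5.44) higher. Angpt1, which steadies vessels, had 10.98 and 2.75 RPKM, 3.996-fold (3.41 to 4.70) lower, and Angpt2, which loosens them, 3.39 and 15.4 RPKM, 4.53-fold (3.73 to 5.54) higher. Apln, apelin, had 8.98 and 40.1 RPKM, 4.46-fold (4.01 to 4.97) higher. Fgf1 and Fgf2 stood on opposite sides, with log2 ratios of -1.32 and 0.93. Mural cell genes also lay on both sides. Tagln, a smooth muscle actin-binding protein, had 63.0 and 151 RPKM, 2.39-fold (2.26 to 2.54) higher, and Rgs5, a pericyte marker, 85.7 and 50.6 RPKM, 1.69-fold (1.59 to 1.81) lower.

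Genes of cell division were on the high side. Of 32 DNA replication genes, 32 lay above 0 and 21 (6 under TMM) were at least 2-fold higher, with a median of 1.08. Pcna, the sliding clamp, had 47.0 and 101.3 RPKM, 2.16-fold (1.99 to 2.34) higher. Cdt1, which loads the replicative helicase, had 3.86 and 11.9 RPKM, 3.08-fold (2.53 to 3.79) higher. Of 34 mitosis genes, 29 (12 under TMM) were at least 2-fold higher, with a median of 1.19. Mki67, the proliferation antigen, had 18.4 and 46.4 RPKM, 2.52-fold (2.41 to 2.63) higher. Top2a, which untangles chromosomes, had 13.4 and 36.8 RPKM, 2.74-fold (2.55 to 2.94) higher. Mad2l1, of the spindle checkpoint, had the largest ratio of the list with 7.46 and 22.96 RPKM, 3.08-fold (2.61 to 3.64) higher. Cenpa, the centromeric histone, was the exception at 19.1 and 21.4 RPKM. Apart from Cenpa the mitosis list ran from 0.63 (Cenpf) upward on the log2 scale.

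G1 regulators were less uniform, with 3 of 19 higher, namely Myc, Ccna2 and E2f1. Myc had 9.10 and 29.0 RPKM, 3.19-fold (2.81 to 3.62) higher. Ccnd1 and Ccnd2, the cyclins that start the cycle, had log2 ratios of 0.12 and -0.09, and no direction is given for them, since both lie within the shift between scalings. Cdkn1a, the p53-induced inhibitor p21, had 49.1 and 73.6 RPKM, 1.499-fold (1.40 to 1.60) higher. Base excision repair, the pathway of Neil3, had 0 of 18 genes past 2-fold in either direction, beside 8.2% and 6.07% of all genes. With so few genes that count says little. The median was 0.28, near the 0.24 of all genes. Neil1, a related glycosylase, had 2.93 and 3.43 RPKM, and Ung, the uracil glycosylase, 9.05 and 5.77 RPKM. Ogg1, which removes oxidised guanine, had 3.91 and 6.71 RPKM. The DNA damage and p53 list had a median of 0.63, with 4 (2 under TMM) of 21 genes at least 2-fold higher and 2 lower. The lower genes were Ccng1 and Sesn1, both p53 targets abundant in muscle, with 316 and 138 RPKM and 39.0 and 16.4 RPKM.

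Promoters of mitotic genes often carry the letters TTTGAA, known as the cell cycle homology region. Searched in the same 250 bases on both strands, they were found in 12.7% of compared genes, 15.9% of genes at least 2-fold higher, and 11 of 30 mitosis genes (36.7%). Among 27 DNA replication genes 2 held them (7.41%). Cdk1, the mitotic kinase, with 5.19 and 14.504 RPKM, and Smc2, a condensin subunit, with 5.78 and 15.9 RPKM, are shown as examples, with matches in capitals (TTCAAA is the same site read on the other strand). The match nearest the start lies 15 bases before it in Cdk1 and 145 bases before it in Smc2:
Cdk1, chr10:69352913-69353162, minus strand: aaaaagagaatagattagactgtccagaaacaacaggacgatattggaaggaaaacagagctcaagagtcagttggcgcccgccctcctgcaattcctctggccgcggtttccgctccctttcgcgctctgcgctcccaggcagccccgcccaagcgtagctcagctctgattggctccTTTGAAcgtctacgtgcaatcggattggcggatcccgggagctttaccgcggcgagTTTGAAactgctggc
Smc2, chr4:52438971-52439220, plus strand: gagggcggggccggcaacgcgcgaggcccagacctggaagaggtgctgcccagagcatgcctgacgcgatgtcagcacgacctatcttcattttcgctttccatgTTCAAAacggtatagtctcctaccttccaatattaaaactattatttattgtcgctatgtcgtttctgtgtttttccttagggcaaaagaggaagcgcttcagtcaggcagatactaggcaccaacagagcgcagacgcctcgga
As above, the build is GRCm38.p6, while the deposited counts are on mm9, so the coordinates serve only the sequences.

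Among stress programs, of 24 genes of the unfolded protein response of the reticulum, 10 (5 under TMM) were at least 2-fold higher, with a median of 0.85. Pdia4 and Creld2, folding factors, had 37.5 and 92.6 RPKM and 12.4 and 33.5 RPKM. Hspa5, the main chaperone BiP, had 217 and 365 RPKM, 1.69-fold (1.64 to 1.73) higher, while Ddit3, the death-linked factor CHOP, had 11.1 and 10.4 RPKM. Amino acid response genes had a median of 0.83, led by Asns, asparagine synthetase, with 4.76 and 15.1 RPKM, 3.18-fold (2.62 to 3.88) higher. Heat shock genes of the cytosol had a median of 0.03, which turned to -0.23 under TMM. Hspb6, a small heat shock protein of muscle, had 1492 and 609 RPKM, 2.45-fold (2.40 to 2.499) lower, and Hsp90aa1, the inducible chaperone, 120.0 and 229 RPKM, 1.91-fold (1.85 to 1.98) higher.

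Antioxidant genes had a median of -0.03, with 4 (1 under TMM) of 28 higher and 2 (5 under TMM) lower. Sod2, the mitochondrial superoxide dismutase, had 135 and 46.9 RPKM, 2.88-fold (2.77 to 3.005) lower. Sod3, its extracellular relative, had 61.3 and 129.6 RPKM, 2.11-fold (2.002 to 2.23) higher, and Gpx1 114 and 232 RPKM, 2.03-fold (1.92 to 2.15) higher. Hypoxia genes had a median of 0.17, which turned to -0.08 under TMM. Hif1a, the oxygen-regulated factor, had 54.8 and 91.1 RPKM, 1.66-fold (1.60 to 1.73) higher, and its relative Epas1 95.03 and 66.0 RPKM, 1.44-fold (1.39 to 1.49) lower. Iron genes showed Ftl1, the light chain of ferritin, at 385 and 1009 RPKM, 2.62-fold (2.54 to 2.70) higher, and Tfrc, the transferrin receptor, at 55.4 and 26.9 RPKM, 2.06-fold (1.96 to 2.17) lower.

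Cell death genes were on the high side, 8 (5 under TMM) of 22 past 2-fold and a median of 0.86. Ripk3, of necroptosis, had 5.69 and 17.5 RPKM, 3.07-fold (2.58 to 3.67) higher. Muscle proteolysis genes were on the low side, 9 of 19 past 2-fold. Asb2, a muscle ubiquitin ligase adaptor, had 161 and 36.1 RPKM, 4.47-fold (4.24 to 4.72) lower. Trim63 and Fbxo32, the atrophy ligases, had 78.5 and 32.8 RPKM and 37.3 and 14.4 RPKM. Of 17 clock genes 4 were at least 2-fold lower, led by the output gene Dbp with 23.4 and 7.596 RPKM, 3.09-fold (2.64 to 3.61) lower, while the core gene Arntl had 5.04 and 7.04 RPKM. The hour at which each tissue was taken is not stated in the labels.

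All 45 cytosolic ribosomal protein genes lay above 0, with a median of 0.67 and 0 past 2-fold, and the median was 0.42 under TMM. Proteasome genes had a median of 0.21, which turned to -0.04 under TMM. The actin cytoskeleton of non-muscle cells had 19 of 30 genes past 2-fold and a median of 1.17. Actb, beta actin, had 1206 and 3082 RPKM, 2.56-fold (2.52 to 2.59) higher, and Tmsb10, a thymosin that binds actin monomers, 201 and 672 RPKM, 3.35-fold (3.18 to 3.52) higher. Gapdh, like Actb often used as a reference gene, had 544 and 498 RPKM. Annexins and S100 proteins had a median of 1.10, with S100a11 at 357 and 1041 RPKM, 2.92-fold (2.79 to 3.05) higher, and the muscle member S100a1 at 766 and 303 RPKM, 2.53-fold (2.43 to 2.64) lower.

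Many cell type markers are themselves members of these lists, so their direction is not separate from that of the lists. All 8 cardiomyocyte markers belong to the thick filament, thin filament or calcium handling list. The summed level of 8 cardiomyocyte markers was 32220 RPKM in non-infarcted and 10995 RPKM in infarcted tissue, and all 8 were at least 2-fold lower. Neutrophil markers summed to 56.8 and 274 RPKM, macrophage markers to 668 and 1479 RPKM, fibroblast markers to 2538 and 4206 RPKM and endothelial markers to 259 and 400.5 RPKM. Erythroid markers summed to 112 and 214 RPKM. The part of cell makeup in each gene's ratio was not tested. Genes with near-identical copies, such as the globins, ribosomal proteins and MHC genes, are uncertain where the counting split their reads.

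The wild-type libraries give the same contrast once more, without replicates, so values are set side by side and no difference was tested. In 10 of 11 muscle lists and 9 of 9 energy lists the median was lower in the libraries labelled knockout, such as -1.58 against -1.33 for the thick filament and -0.97 against -0.46 for the Z-disc. The exception was the list of atrial genes, with -0.98 against -2.17. Cardiomyocyte markers summed to 2.93-fold less in infarcted tissue of the libraries labelled knockout and 2.04-fold less in wild type. These markers are members of the muscle lists, so the sum is not separate from them. The part of cell makeup in these differences was not tested. In wild type, 777 genes (6.21%) passed 2-fold upward and 450 genes (3.6%) downward.

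Mitosis genes had a median of 1.19 against 0.87 in wild type, and 29 against 6 of 34 genes passed 2-fold upward as deposited. That count in the libraries labelled knockout was 12 under TMM, and no wild-type count under TMM is given to set beside it. The median difference from wild type was 0.34 as deposited and 0.31 under TMM. Smc2 had log2 ratios of 1.32 and 0.67, and Cenpf 0.63 and 0.05. Neutrophil genes had medians of 2.11 and 1.75. S100a8 had 5.53 and 91.5 RPKM in the libraries labelled knockout and 9.42 and 79.5 RPKM in wild type, so the larger ratio came with a lower non-infarcted value. Recruited macrophage genes had medians of 1.62 and 1.45, but fewer of them passed 2-fold upward in the libraries labelled knockout, 25 against 28 of 31. The summed macrophage markers had ratios of 2.21 and 2.65 in the same order. Their sums were 668 and 1479 RPKM in the libraries labelled knockout and 402 and 1066 RPKM in wild type. The smaller ratio thus came with a higher non-infarcted value.

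**Figure D5:**
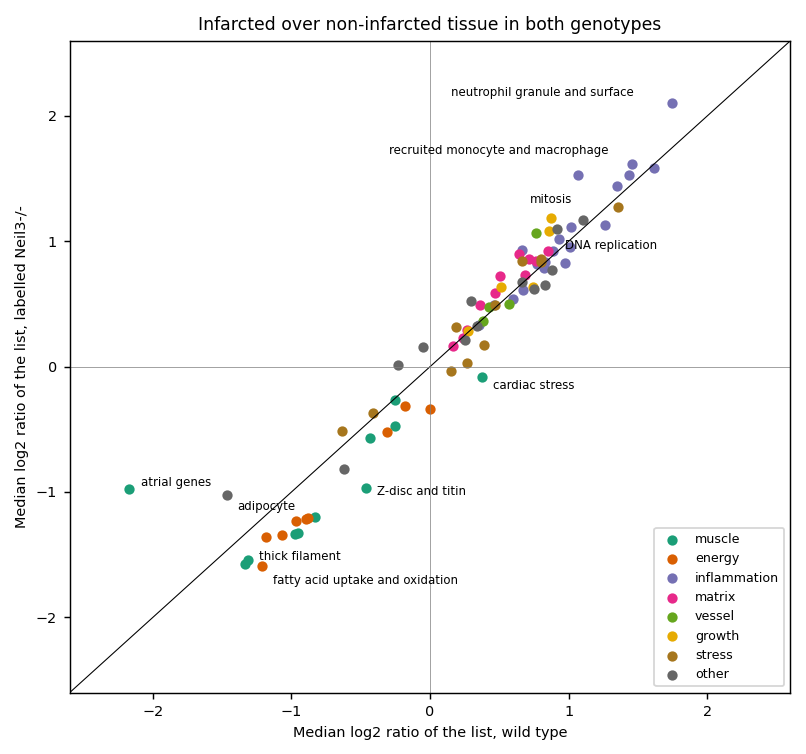
Median log2 ratio (infarcted over non-infarcted) of 84 gene lists in the libraries labelled Neil3-/- (vertical) against wild type (horizontal), coloured by theme, with the line of equal values. All 9 energy lists and 10 of 11 muscle lists lie below the line, and the mitosis list lies above it at 1.19 against 0.87.

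Over single genes, the 2 infarct ratios differed by at least 2-fold at 38 genes (0.299%) above and 29 genes (0.228%) below wild type, of 12716. Cxcl5 was among the former, with 1.35 and 29.2 RPKM in the libraries labelled knockout and 2.72 and 15.2 RPKM in wild type. Nmrk2, a kinase of the muscle NAD salvage route, was among the latter, with 64.8 and 28.7 RPKM and, in wild type, 113 and 106 RPKM. Sprr1a, a stress protein of heart muscle, had 608 and 1281 RPKM and 200.1 and 877 RPKM, so its infarcted values differed less than its non-infarcted ones. Rpl3l had 83.0 and 8.10 RPKM and 54.9 and 12.2 RPKM. Ces1d and 2310050B05Rik also lay below wild type, and the atrial genes Myl7 and Myl4 above it. Myl7 had 10.6 and 0.183 RPKM and, in wild type, 49.0 and 0.290 RPKM, and Myl4 16.01 and 2.30 RPKM and 63.1 and 2.23 RPKM. Both atrial genes were thus lower in infarcted tissue of either genotype and differed in their non-infarcted level, while Nppa, of the same list, had 1228 and 1805 RPKM in the libraries labelled knockout and 1715 and 2498 RPKM in wild type. The rest of the 8 genes furthest from wild type on each side are small noncoding RNA genes.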

How the data were processed

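RNA of 4 mouse left ventricle samples, 1 library per group, was sequenced on an Illumina HiSeq, per the labels' protocols. Per the file headers, the deposited count of a gene is its number of uniquely assigned reads, listed only where there is at least 1. A gene absent from a table was taken as 0 reads. The deposited RPKM equals reads over listed length and library total (largest relative error 3.64e-14 over both knockout libraries), and the deposited coverage is a percent of the gene model. The submitters' processing notes name build mm9. The aligner, the counting tool, the annotation and any use of strand were not given in the sources used here, so a gene and an antisense or overlapping neighbour cannot be told apart.

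Genes at 1 RPKM in at least 1 of both libraries were compared as the log2 ratio of RPKM plus a pseudocount of 1 RPKM, and a fold of 2 was counted. Since the sources give 1 library per group, no test was run. Ratios carry exact Clopper-Pearson 95% intervals of the read share (scipy 1.17.1), which cover counting error only: reads of amplified libraries are not independent molecules. At these depths 1 read on a 2 kb gene is 0.0350 RPKM in non-infarcted and 0.0275 RPKM in infarcted tissue, and the floor for a gene without reads is 3 reads per library. Alternatives were TMM (edgeR 4.0.16) and median-ratio (DESeq2 1.42.0) scaling, totals without the 100 most read genes or without ribosomal and small noncoding RNA, other pseudocounts and filters, and a call by the interval. The rule for the calls and the interval were also run on simulated counts, and the outcome is not given here. Listed gene length differed between the knockout tables for 12 genes, and 40 genes without a symbol were counted but not named.

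Members, the 84 lists (1666 genes, 1513 compared) and the 20 pairs were chosen with earlier results of these data known. Named genes are the targeted gene, the 20 highest and 20 lowest by the near bound of the interval among 9520 genes at 5 RPKM or more, the 10 most abundant per library, the 8 furthest from wild type on each side, and the list members with large or opposite ratios. Genes with ribosomal or small noncoding RNA names were mostly left to counts. Promoter and microRNA sequences are from RefSeq, GRCm38.p6.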

Additional observations from a re-analysis of the deposited data

Results flagged for a closer look

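A few ratios of infarcted to non-infarcted tissue, each from single libraries, lay on opposite sides of no change in the 2 genotypes as deposited, and the differences were not tested. Most of them lie so near no change in the libraries labelled knockout, within the shift of -0.23 between scalings, that opposite movement is not shown. Rn18s, 18S ribosomal RNA, had a ratio of 1.79 (1.78 to 1.81) in the libraries labelled knockout and 0.821 (0.812 to 0.830) in wild type. Des had a ratio of 0.985 (0.975 to 0.996) in the libraries labelled knockout and 1.46 (1.45 to 1.47) in wild type. Among lists, the median of the cardiac stress genes was -0.079 in the libraries labelled knockout and 0.37 in wild type. The antioxidant list had medians of -0.033 and 0.15, the NAD metabolism list 0.15 and -0.05, and the sex-linked list 0.014 and -0.23, in the same order. Under TMM scaling the medians of NAD metabolism and of the sex-linked genes in the libraries labelled knockout were -0.06 and -0.23, the sign they have in wild type as deposited. TMM multiplied infarcted and non-infarcted values by 0.915 and 1.09 in the libraries labelled knockout and by 0.925 and 1.08 in wild type. It thus moves both genotypes in the same direction, and wild-type medians under TMM are not given here.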

How the results depend on the processing

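The count of higher genes, 1030 as deposited, was 528 under TMM, 532 under median-ratio scaling and 1578 with a pseudocount of 0.1 RPKM. Under the other alternatives it ranged from 819 to 1305. The count of lower genes, 762, ranged from 674 to 1096 over all alternatives and stayed within 1.5 times. The 528 genes were all among the 1030, and the 762 were all among the 1096 that TMM called. Under TMM, the list median turned in sign for Wnt, insulin-like growth factors, heat shock, hypoxia, proteasome, NAD metabolism, Schwann and nerve, and sex-linked genes. No paired analysis was possible because each group holds 1 library and the labels give no replicate numbers. Leaving out a library leaves no comparison. Depth limits genes of few reads, such as Cxcl3, Slpi and the microRNA genes, whose intervals are wide.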
